A study of Homo sapiens with 6 samples.

Results

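Aminoacyl-tRNA synthetase mRNAs were followed in OCI-AML3, an established line of human acute myeloid leukaemia cells that carries the NPM1c mutation, by which nucleophosmin is moved from the nucleolus to the cytoplasm. The 35 genes were chosen by name: every row of the count table whose NCBI symbol is one of 35 listed synthetases, out of 28307 genes in all. All 35 were found, 19 cytosolic and 16 mitochondrial enzymes, and all 35 had enough counts to be tested. One group of 3 libraries came from cells transfected with an siRNA against NPM1c (siNPM1c) and the other, also of 3, from cells transfected with a control siRNA (siControl). Both siRNAs were given with a lipid reagent at 10 nM, total RNA was taken on day 3, and the labels give genotype WT and 1 shared batch for all 6 libraries. The design rests on 1 cell line, and untransfected cells were not analysed here.

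Each synthetase joins 1 amino acid to its tRNA, and the charged tRNA is then carried to the ribosome by the elongation factor eEF1A. Human cells keep separate nuclear genes for most cytosolic enzymes (names ending in 1, and the FARSA and FARSB subunits) and for their mitochondrial counterparts (names ending in 2), which serve the mitochondrial ribosome. GARS1 and KARS1 each encode both forms. Several cytosolic enzymes are held in a multisynthetase complex, and many cytosolic synthetase genes are known targets of ATF4, the transcription factor of the amino acid response. WARS1 is in addition known as a gene induced by interferon.

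Total counts per library ran from 15075235 to 25190122, of which 3414688 to 6695652 fell on protein-coding genes and 10163 to 22572 on the 35 synthetases. Genes of ribosomal RNA held 63.0% to 64.5% of all counts in siControl and 69.4% to 71.1% in siNPM1c. NPM1, the gene of the siRNA's target NPM1c, had 922, 1366 and 922 raw counts in siControl replicates 1 to 3 and 293, 500 and 350 in the siNPM1c replicates, a log2 fold change of -1.10 ± 0.05 (SE). Counts are per gene, so mutant and wild-type NPM1 transcripts cannot be told apart here. Of 8 myeloid markers, 7 had at least 10 counts in every library, while KIT had 0 to 2. Summed over 4 genes each, T cell and erythroid markers stayed at 0 to 5 counts per library, B cell markers at 14 to 36 and stromal markers at 12 to 35. The labels do not say whether replicates came from separate cultures, so the p-values cover the spread among the 6 libraries, and that spread may be technical.

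Values are CPM, counts scaled to a common library size with TMM factors, which take the bulk of genes as level. Log2 fold changes are siNPM1c minus siControl, and a gene was called at an adjusted p under 0.05 in edgeR (quasi-likelihood F test, Benjamini-Hochberg over all 12938 genes tested). With library sizes alone, where ribosomal RNA counts towards the depth, the median of all genes moved from -0.01 to -0.48, and all 19 cytosolic and all 16 mitochondrial synthetases were called lower. Directions below are therefore relative to the bulk of genes. In bulk RNA, fewer cells of a type and less RNA per cell cannot be told apart.

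As examples, 3 promoter windows are given, each the 250 bases before the annotated start, 5′ to 3′ on the gene's strand, from RefSeq on GRCh38.p14. AARS1 and IARS1 are listed ATF4 targets whose mRNAs were called in opposite directions with TMM scaling (both lower under library sizes alone), and IARS2 is the mitochondrial partner of IARS1. Capitals mark a match to TGATGNAA, the core of the composite ATF4 element, on either strand.
AARS1, chr16:70289507-70289756, minus strand: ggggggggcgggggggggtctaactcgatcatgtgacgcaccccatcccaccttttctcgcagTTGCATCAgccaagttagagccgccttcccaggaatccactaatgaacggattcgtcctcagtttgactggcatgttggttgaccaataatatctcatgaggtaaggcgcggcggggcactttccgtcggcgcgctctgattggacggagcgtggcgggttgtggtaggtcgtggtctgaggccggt
IARS1, chr9:92293698-92293947, minus strand: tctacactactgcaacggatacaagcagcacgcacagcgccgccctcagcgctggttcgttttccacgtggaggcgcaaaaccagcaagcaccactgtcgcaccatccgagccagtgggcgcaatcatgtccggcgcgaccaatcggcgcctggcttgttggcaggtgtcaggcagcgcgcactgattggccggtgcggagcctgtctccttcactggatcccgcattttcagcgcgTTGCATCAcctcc
IARS2, chr1:220093882-220094131, plus strand: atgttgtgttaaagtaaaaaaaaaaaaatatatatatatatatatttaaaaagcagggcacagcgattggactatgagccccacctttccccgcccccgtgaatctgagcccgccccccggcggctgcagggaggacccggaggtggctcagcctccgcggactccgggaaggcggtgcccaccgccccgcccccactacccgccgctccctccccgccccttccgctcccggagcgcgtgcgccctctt

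AARS1 and IARS1 held the same letters, ttgcatca, 187 and 13 bases before the start, and the IARS2 window held no match. Windows were found for 30 of the 35 genes. A match to TGATGNAA was found in 2 of 16 cytosolic and 1 of 14 mitochondrial windows (YARS2, tgatggaa), against 3.19% of all 27305 windows of this length and 1.38% of those of genes tested. Of the listed ATF4 targets 10 had a window, and only 2 of these, the printed AARS1 and IARS1, held a match. The interferon-stimulated response element, searched by its core on both strands, was found in 0 cytosolic windows, WARS1 among them, and in 1 mitochondrial window (EARS2), against 3.07% of all windows. CCAAT, also searched on both strands, was found in 7 cytosolic and 9 mitochondrial windows, against 33.0% of all windows. A match describes letters in this window and is not a site shown to be bound. Bases outside the window, among them those after the start, were not searched. A missing match therefore does not show that a gene lacks the element.

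Synthetase mRNAs changed little, and more of them fell than rose relative to the bulk of genes. Among the 19 cytosolic enzymes 6 fell (RARS1, IARS1, TARS1, LARS1, GARS1 and QARS1) and 2 rose (CARS1 and AARS1, lower under library sizes alone), the median of their log2 fold changes being -0.08 and the extremes -0.41 and 0.21. Among the 16 mitochondrial enzymes 5 fell (WARS2, IARS2, FARS2, SARS2 and MARS2) and 1 rose (TARS2, lower under library sizes alone), the median being -0.18 and the extremes -0.65 and 0.18. Over all genes tested 21.4% were called lower and 21.3% higher, with a median of -0.01. The synthetases' 14 calls of 35 stand beside 42.7% over all genes. A change of at least 1.25-fold in either direction was reached by 1 cytosolic and 5 mitochondrial members, against 37.9% of all genes. The median SE of the log2 fold change was 0.12 over all genes, 0.06 over cytosolic and 0.11 over mitochondrial members. The part of precision in the 1.25-fold share was not tested. Groups did not overlap, with siNPM1c below, for 8 cytosolic and 5 mitochondrial members, against 24.9% of all genes, and with siNPM1c above for 3 and 1, against 24.3%.

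The count of cytosolic members that rose depended on single libraries: it was 0 without siNPM1c replicate 2, 1 without siControl replicate 2 and 4 without siNPM1c replicate 1. The 5 mitochondrial members that fell became 3 without siNPM1c replicate 1, 3 without siNPM1c replicate 3, 2 with DESeq2 and 3 with limma-voom. The mitochondrial median of -0.18 ran from -0.11 without siControl replicate 2 to -0.27 without siControl replicate 3, and the cytosolic median from -0.07 to -0.10 when 1 library was left out. Whether the compartments differ was not tested.

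**Figure D1:**
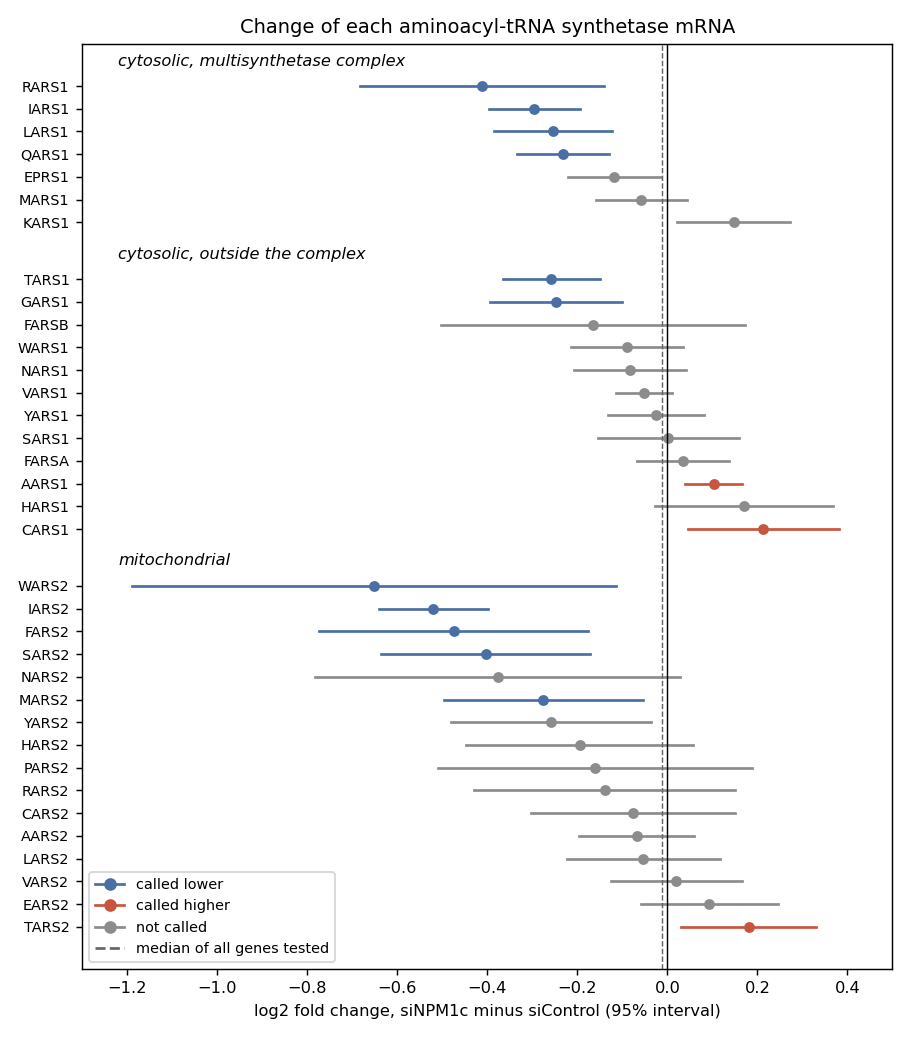
Log2 fold change of each synthetase mRNA (siNPM1c minus siControl, TMM scaling) with its 95% interval, grouped by compartment and complex; blue was called lower, red higher, grey not called, and the dashed line is the median of all genes tested (-0.01). Most points lie left of 0, and the points called higher (CARS1, AARS1 and TARS2) turn negative under library sizes alone.

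Enzymes of the multisynthetase complex were measured for 7 listed members, of which 4 fell and 0 rose, with a median of -0.23, beside 21.4% lower and 21.3% higher over all genes. Their median GC content was 43.3%, against 50.9% over all genes. IARS1, which charges isoleucine tRNA, stood at 43.8, 43.1 and 40.3 CPM in siControl replicates 1 to 3 and at 33.9, 35.6 and 33.8 CPM in siNPM1c replicates 1 to 3. All 3 siNPM1c values lay below the lowest control value. The log2 fold change was -0.30 ± 0.05 (SE, adjusted p = 2.05e-07), 1.23-fold lower. QARS1, the glutaminyl enzyme, was at 45.7, 41.6 and 45.6 CPM and then at 37.3, 41.1 and 32.9 CPM. These groups are just apart, with siNPM1c replicate 2 close to siControl replicate 2, and the change was -0.23 ± 0.05 (adjusted p = 7.68e-05). LARS1, the leucyl enzyme, which also serves as a leucine sensor for mTORC1, fell from 24.2 ± 1.06 (SD, n = 3) to 20.3 ± 0.695 CPM, a change of -0.26 ± 0.07 (SE). Arginyl-tRNA synthetase, RARS1, fell from 5.80 ± 0.259 to 4.38 ± 0.245 CPM (-0.41 ± 0.14, SE), on 56 to 165 counts per library.

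The other 3 complex members were not called. EPRS1, which fuses the glutamyl and prolyl enzymes in 1 protein, had a log2 fold change of -0.12 (95% interval -0.22 to -0.01, adjusted p = 0.0582). MARS1, for methionine, had -0.06 (-0.16 to 0.04). KARS1, for lysine in both compartments, had 0.15 (0.02 to 0.27, adjusted p = 0.052), with siNPM1c libraries all above siControl ones and -0.32 under library sizes alone. EPRS1 passed the threshold without siControl replicate 2 (-0.15) and without siNPM1c replicate 2 (-0.17). It also passed with upper-quartile factors (-0.13), without a filter on low counts (-0.14) and with a filter of 5 CPM in 3 libraries (-0.13). KARS1 passed it without siControl replicate 1 (0.16), siControl replicate 3 (0.16) or siNPM1c replicate 1 (0.19). It also passed with the GC correction (0.17), in a fit limited to protein-coding genes (0.16) and when scaled by size factors from DESeq2 (0.15). RARS1 lost its call without siNPM1c replicate 2 (-0.38) and with DESeq2 (-0.40). With a correction for GC content the calls of LARS1 (-0.12) and RARS1 (-0.24) were lost. Scaffold proteins of the complex gave mixed values: AIMP2 rose by 0.36 ± 0.15 log2 (SE; -0.11 under library sizes alone, and not called without siControl replicate 1 or 3 or siNPM1c replicate 2, with values down to 0.24), AIMP1 had -0.30 ± 0.14 (adjusted p = 0.0845), and EEF1E1 had 0 to 6 counts and was not tested.

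Among the 12 cytosolic enzymes outside the complex 2 fell and 2 rose, with a median of -0.04. The shares over all genes were 21.4% lower and 21.3% higher. TARS1, the threonyl enzyme, was at 35.8, 36.4 and 39.1 CPM in siControl and at 33.6, 31.2 and 28.3 CPM in siNPM1c, with no overlap and a change of -0.26 ± 0.05 (SE, adjusted p = 2.73e-05). GARS1, the glycyl enzyme of cytosol and mitochondria, was at 18.6, 19.5 and 19.01 CPM and then at 15.5, 16.5 and 16.1 CPM, again without overlap (-0.25 ± 0.07, adjusted p = 0.00346). The GARS1 call was lost with the GC correction (-0.17).

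AARS1, the alanyl enzyme and per length the most abundant synthetase mRNA, was at 105, 100 and 103 CPM in siControl and at 109, 113 and 108 CPM in siNPM1c. Its groups did not overlap, and it rose by 0.10 ± 0.03 log2 (SE, adjusted p = 0.00492), or 1.07-fold, with -0.37 under library sizes alone. CARS1, the cysteinyl enzyme, was at 12.5, 12.6 and 11.6 CPM and then at 13.9, 14.9 and 13.6 CPM. It rose by 0.21 ± 0.09 log2 (adjusted p = 0.0321), with -0.26 under library sizes alone. The call of AARS1 was lost without siControl replicate 2 (0.08), without siNPM1c replicate 2 (0.08), without a filter on low counts (0.08) and with the GC correction (0.04), and that of CARS1 without siControl replicate 3 (0.18), without siNPM1c replicate 2 (0.17), without a filter (0.19), with the GC correction (0.15) and with DESeq2 (0.22). Over the 18 alternatives the adjusted p ran up to 0.285 for AARS1 and 0.182 for CARS1.

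WARS1, the tryptophanyl enzyme, was at 24.2, 26.5 and 24.6 CPM in siControl and at 23.9, 24.0 and 23.2 CPM in siNPM1c. The siNPM1c libraries were the lower ones by a narrow margin, and the change of -0.09 (95% interval -0.21 to 0.03, adjusted p = 0.254) was not called. In the same libraries ISG15, an interferon-induced modifier chosen here after its value was seen, rose 4.84-fold with TMM scaling. No list of interferon-induced genes was set beside WARS1, and a link between these genes was not tested. VARS1, the valyl enzyme and the member with the most counts summed over the 6 libraries, was at 113, 111 and 114 CPM and then at 106, 113 and 105 CPM. Its siNPM1c replicate 2 lay among the control values, and the change was -0.05 (-0.11 to 0.01), although with the GC correction it was called lower (-0.15). The remaining uncalled members, FARSA, FARSB, HARS1, NARS1, SARS1 and YARS1, had log2 fold changes from -0.17 for FARSB to 0.17 for HARS1, and HARS1 passed the threshold without siNPM1c replicate 1 (0.28).

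**Figure D2:**
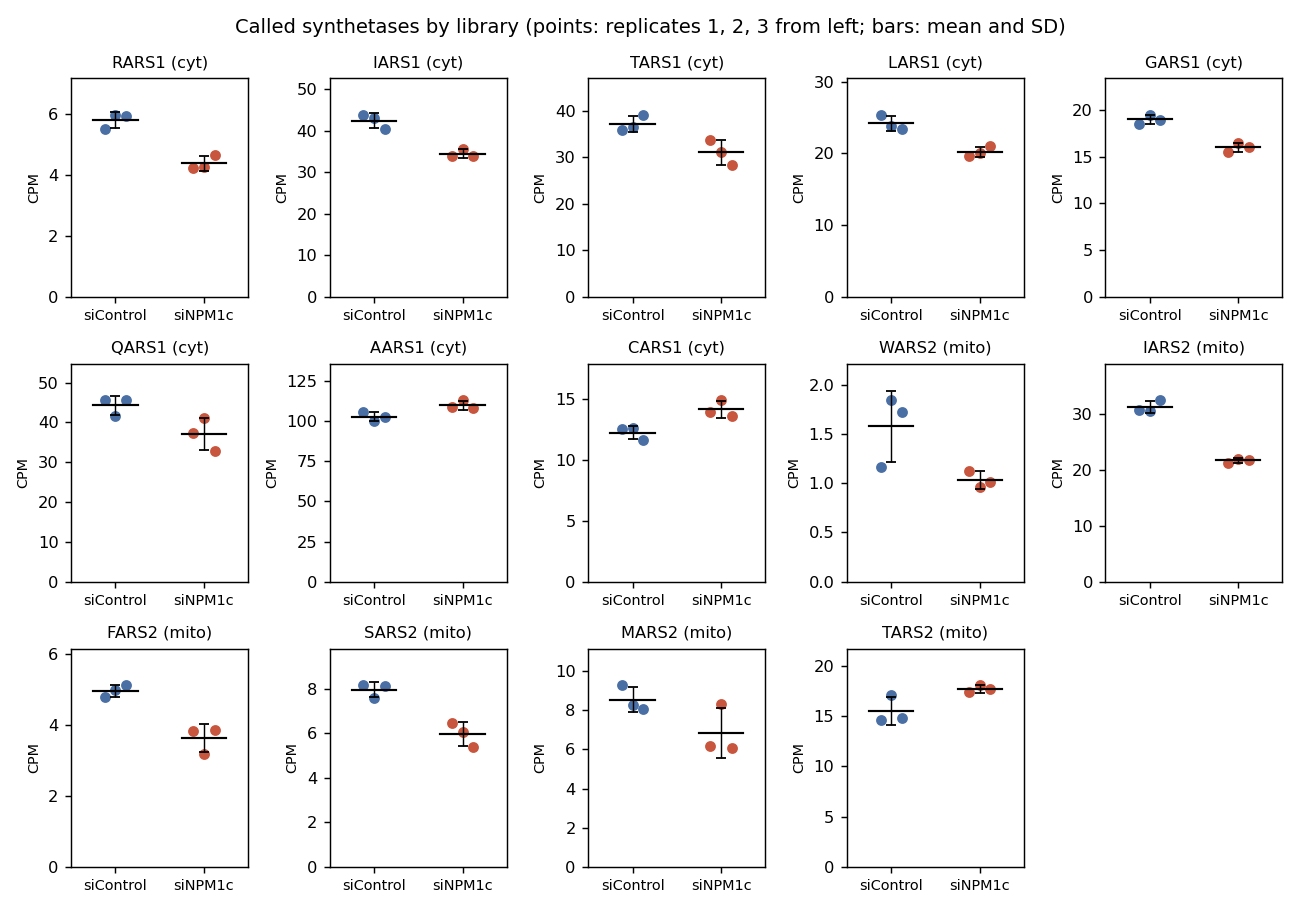
CPM (y axis, from 0) of the 14 called synthetases in each library, with siControl in blue and siNPM1c in red, replicates 1 to 3 from left to right, and the mean and SD as bars. IARS2 shows the widest gap between groups for its spread, the panels of MARS2 and QARS1 show siNPM1c replicate 2 near the controls, and the higher siNPM1c values of CARS1, AARS1 and TARS2 hold for TMM scaling and reverse under library sizes alone.

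Known ATF4 targets were compared with the other cytosolic enzymes. Of the 12 listed targets (AARS1, CARS1, EPRS1, GARS1, IARS1, LARS1, MARS1, NARS1, SARS1, TARS1, WARS1 and YARS1) 4 fell and 2 rose, with a median of -0.09. Of the other 7, 2 fell and 0 rose, with a median of -0.05. Over all genes 21.4% were called lower and 21.3% higher, and whether the listed targets differ from the other enzymes was not tested. ATF4 itself rose by 0.25 ± 0.04 log2 (SE, adjusted p = 3.92e-09), from 64.1 ± 1.77 to 76.1 ± 2.33 CPM (SD, n = 3), but was called lower under library sizes alone (-0.22). DDIT3, the stress-induced factor CHOP, rose by 0.58 ± 0.11 (0.11 and not called under library sizes alone), and TRIB3, a pseudokinase that curbs ATF4, by 0.31 ± 0.05 (called lower, -0.16, under library sizes alone). DDIT3 overlaps 62 exon bases of MARS1 on the other strand. EIF2AK4, the kinase GCN2 that senses uncharged tRNA, had -0.07 ± 0.08 and was not called.

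Genes of amino acid synthesis and transport, 13 on the list, moved both ways, with 4 higher, 3 lower and a median of -0.02 (1 higher and 9 lower under library sizes alone). With TMM scaling 21.3% of all genes were called higher and 21.4% lower. SLC7A11, the cystine importer, rose 2.24-fold, from 6.05 ± 0.719 to 13.3 ± 1.15 CPM (SD, n = 3; adjusted p = 3.70e-22), and was higher under library sizes alone too (0.69 log2). PHGDH, of serine synthesis, rose by 0.37 ± 0.13 log2 (SE), with -0.10 under library sizes alone, and was not called without siControl replicate 1 or 2 or siNPM1c replicate 2 (values down to 0.28). The glutamine importer gene SLC1A5 fell by 0.12 (SE 0.04) and MTHFD2, of mitochondrial folate metabolism, by 0.20 (SE 0.07), calls lost without siNPM1c replicate 1 for SLC1A5 and without siControl replicate 2 or siNPM1c replicate 3 for MTHFD2 (values up to -0.09 and -0.13). ASNS, asparagine synthetase, had 0.05 ± 0.27 log2 (95% interval -0.48 to 0.58) at 1.29 ± 0.158 CPM in siControl and was not called.

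Among the mitochondrial enzymes WARS2, IARS2, FARS2 and SARS2 had log2 fold changes of -0.65, -0.52, -0.47 and -0.40, an order that changed between fits: with the GC correction IARS2 (-0.36) lay behind FARS2 (-0.54) and SARS2 (-0.51). IARS2, the isoleucyl enzyme of the matrix, was at 30.8, 30.6 and 32.6 CPM in siControl replicates 1 to 3 and at 21.3, 22.0 and 21.9 CPM in siNPM1c replicates 1 to 3. The groups lay far apart beside a spread of at most 1.11 CPM (SD) in either. IARS2 fell by 0.52 on the log2 scale (SE 0.06, adjusted p = 5.21e-14), 1.43-fold, and remained called lower in all 18 alternatives. SARS2, the seryl enzyme, was at 8.17, 7.57 and 8.13 CPM and then at 6.47, 6.08 and 5.40 CPM, without overlap. It fell by 0.40 (SE 0.12, adjusted p = 0.00275) and was likewise called in all 18. In GENCODE 29, exons of SARS2 overlap MRPS12 on the opposite strand over 349 bases, where reads of either gene cannot be told apart without a known strand setting. On its own strand 1492 bases, 67.4% of the SARS2 exon length, are shared with AC011455.2, annotated as protein-coding, so its counts are uncertain where reads could be split.

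FARS2, the phenylalanyl enzyme, was at 4.78, 4.96 and 5.12 CPM in siControl and at 3.84, 3.16 and 3.85 CPM in siNPM1c, without overlap. It fell by 0.47 (SE 0.15, adjusted p = 0.00647), a call lost without siNPM1c replicate 2 (-0.36) and with DESeq2 (-0.46). MARS2, the methionyl enzyme, was at 9.29, 8.26 and 8.08 CPM and then at 6.17, 8.34 and 6.08 CPM. Its siNPM1c replicate 2 lay above 2 of the control values, and the decrease of 0.28 (SE 0.11, adjusted p = 0.0376) was lost without siControl replicate 1 (-0.22), siNPM1c replicate 1 (-0.20) or siNPM1c replicate 3 (-0.19), with DESeq2 (-0.29) and with limma-voom (-0.28).

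WARS2, the tryptophanyl enzyme, had the fewest counts, 21, 51 and 32 in siControl and 15, 20 and 15 in siNPM1c. That is 1.17, 1.85 and 1.72 CPM against 1.13, 0.958 and 1.01 CPM, so siControl replicate 1 lay just above the highest siNPM1c value. It fell by 0.65 (SE 0.27, adjusted p = 0.0424), and the call was lost in 10 of 17 alternatives. Among these were the fits without siControl replicate 2 (-0.50) or 3 (-0.61) and without siNPM1c replicate 1 (-0.70), 2 (-0.58) or 3 (-0.64).

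TARS2, the threonyl enzyme, was the mitochondrial member that rose, from 14.6, 17.1 and 14.8 CPM to 17.4, 18.1 and 17.7 CPM. Its change was 0.18 ± 0.08 log2 (SE, adjusted p = 0.045), with -0.29 under library sizes alone, and in 11 of the other 17 alternatives it was not called. These included the fits without siControl replicate 1 (0.14) or 3 (0.15) and without siNPM1c replicate 2 (0.17) or 3 (0.19).

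The remaining 10 mitochondrial enzymes were not called. AARS2, the alanyl enzyme, was at 24.4, 24.9 and 23.2 CPM in siControl and at 22.4, 23.9 and 22.6 CPM in siNPM1c, with overlapping groups and a change of -0.07 (95% interval -0.20 to 0.06). YARS2, for tyrosine, had -0.26 (-0.48 to -0.04, adjusted p = 0.0532) and passed the threshold without siControl replicate 3 (-0.30) or siNPM1c replicate 2 (-0.44). It also passed with upper-quartile factors (-0.27), with a filter of 5 CPM in 3 libraries (-0.27) and with the GC correction (-0.29). NARS2, for asparagine, had -0.38 (-0.78 to 0.03) on 25 to 71 counts per library. CARS2, EARS2, HARS2, LARS2, PARS2, RARS2 and VARS2 had values from -0.20 for HARS2 to 0.09 for EARS2. HARS2 and HARS1, the histidyl pair, lie side by side on chromosome 5 (140691455-140699305 and 140673905-140691370 in RefSeq on GRCh38.p14, without overlap), while their GENCODE 29 exons share 402 bases on opposite strands. HARS1 had 0.17 (-0.03 to 0.37) and HARS2 -0.20 (-0.45 to 0.06).

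No separate mitochondrial enzyme for glutamine is listed: the matrix charges that tRNA with glutamate by EARS2 and converts it with the amidotransferase of GATB, GATC and QRSL1. EARS2 was at 16.5, 15.3 and 15.4 CPM and then at 16.3, 17.2 and 16.6 CPM, overlapping and not called. QRSL1 rose by 0.47 ± 0.15 log2 (SE, adjusted p = 0.00445; 0.01 under library sizes alone), while GATC had -0.20 ± 0.09 and GATB 0.04 ± 0.14, neither called. Among 9 mitochondrial translation factors 1 rose and 2 fell: TUFM, the matrix elongation factor that delivers charged tRNA, rose by 0.15 ± 0.05 (called lower, -0.32, under library sizes alone), GFM1, the translocation factor, fell by 0.46 (SE 0.13) and MTIF3, an initiation factor, fell by 0.94 (SE 0.35) from 1.06 ± 0.0319 CPM (SD, n = 3). The TUFM call was lost without siControl replicate 1 or 2 or siNPM1c replicate 2 (values down to 0.11), and that of MTIF3 without siControl replicate 2 or siNPM1c replicate 1 or 3 (values up to -0.78). Of 5 genes of mitochondrial tRNA processing 1 fell, TRMT10C, a subunit of mitochondrial RNase P, by 0.51 (SE 0.20), and 0 rose. That call was lost without siControl replicate 3 or siNPM1c replicate 1 or 3 (values up to -0.39). Beside the counts of these mitochondrial lists stand 21.4% lower and 21.3% higher over all genes.

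Cytosolic genes that take tRNA from the nucleus and from synthetase to ribosome fell in 4 of 5 cases, with 0 higher and a median of -0.385, beside 21.4% lower and 21.3% higher over all genes. XPOT, the nuclear export receptor of tRNA, fell from 25.5 ± 0.495 to 17.2 ± 1.02 CPM (SD, n = 3), 1.49-fold (adjusted p = 7.51e-14). EEF1A1, the elongation factor, fell from 1117 ± 22.2 to 856 ± 8.70 CPM, EEF1B2 of its exchange complex from 23.5 ± 0.283 to 15.2 ± 1.60 CPM, and EEF1G by 0.23 (SE 0.03). Reads of EEF1A1 and EEF1B2 may also fit processed pseudogenes. EEF1D had 0.02 ± 0.03 and was not called, and all 5 were lower under library sizes alone. Whether these genes differ from the synthetases was not tested.

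Cytosolic and mitochondrial enzymes were then set against each other within each library, a ratio that does not depend on the scaling between libraries. GARS1 and KARS1, which encode both forms, were counted on the cytosolic side only. Summed counts of the 19 cytosolic members were 3.68, 3.69 and 3.83 times those of the 16 mitochondrial members in siControl replicates 1 to 3 and 3.95, 3.97 and 3.96 times in siNPM1c replicates 1 to 3. The ratio was thus higher in each siNPM1c library than in each siControl library, by 0.08 on the log2 scale (SD 0.03 within siControl and 0.005 within siNPM1c). The size depended on how members were combined: without the member with the most counts on each side, VARS1 and IARS2, the difference was 0.01, and with the median log2 CPM over members in place of sums it was 0.23. No p is given for this sum, since an exact test of 3 against 3 libraries cannot go below 0.1.

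For single amino acids, 14 had an enzyme gene in both compartments, counting FARSA and FARSB together. In 7 pairs every siNPM1c library had a higher cytosolic to mitochondrial ratio than every siControl library (Ala, Cys, Phe, Ile, Asn, Ser and Trp), in 3 a lower one (Leu, Arg and Thr), and in 4 the groups overlapped (His, Met, Val and Tyr). For single genes, groups did not overlap with siNPM1c below for 24.9% of all genes and above for 24.3%. No such share was computed for ratios of other gene pairs, so these counts stand without a background. The Thr pair moved most towards the mitochondrial side, with TARS1 to TARS2 ratios of 2.45, 2.13 and 2.64 in siControl and 1.94, 1.72 and 1.60 in siNPM1c. Among pairs moving to the cytosolic side, Trp went from 20.8, 14.4 and 14.3 to 21.2, 25.1 and 22.9, with siControl replicate 1 next to the siNPM1c values. This pair rests on 15 to 51 WARS2 counts per library. For Phe the ratios were 8.11, 8.35 and 7.75 against 10.2, 12.9 and 10.9, and for Ile, where both enzymes fell, 1.43, 1.41 and 1.24 against 1.59, 1.62 and 1.55. For Arg the pair went from 1.22, 1.24 and 1.29 to 1.10, 1.01 and 1.02, so the pairs did not move in 1 direction. The ratios are not corrected for GC content. With that correction the log2 fold changes of LARS1 and LARS2 were nearly the same, -0.12 and -0.11. Those of RARS1 and RARS2 were -0.24 and 0.02, and those of TARS1 and TARS2 -0.18 and 0.10. In the 7 pairs with a higher ratio the cytosolic value stayed above the mitochondrial one with the correction. The values were 0.04 and -0.17 for Ala, 0.15 and -0.16 for Cys, -0.19 and -0.36 for Ile. For Asn they were -0.01 and -0.26, for Ser -0.03 and -0.51, and for Trp -0.11 and -0.61. For Phe they were -0.07 (FARSA) and -0.01 (FARSB) against -0.54. The part of GC content in the ratios was not tested.

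**Figure D3:**
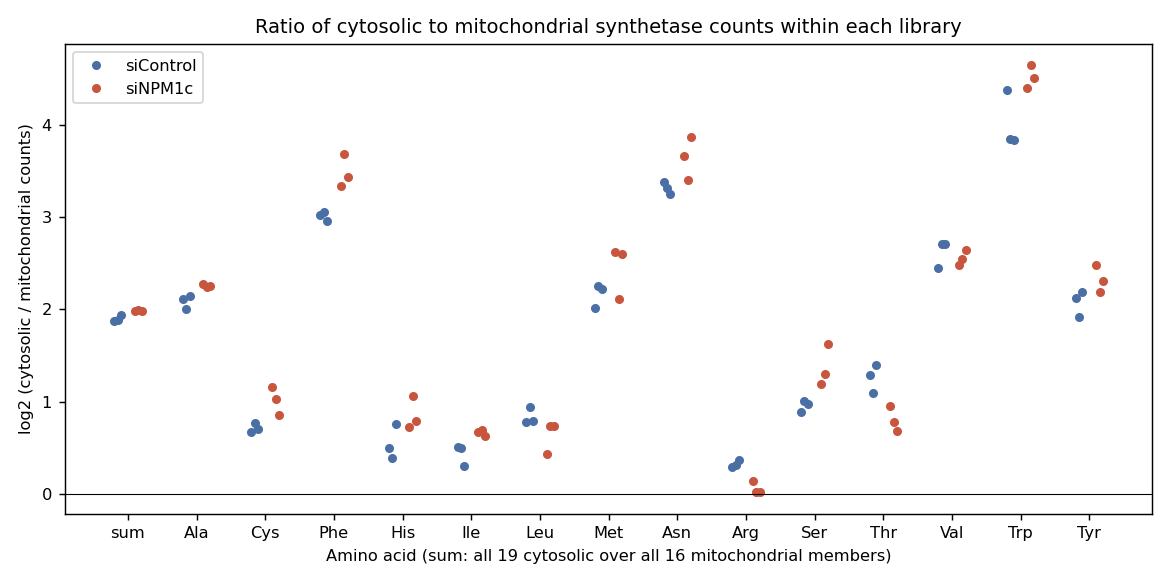
Log2 ratio of cytosolic to mitochondrial synthetase counts within each library (y axis) for all members summed and for each amino acid with both enzymes (x axis), siControl blue and siNPM1c red, 1 point per library. The groups separate upward for 7 amino acids and for the sum, downward for 3 (Leu, Arg, Thr), and overlap for 4. No share of separated groups was computed for other gene pairs, and GARS1 and KARS1, which encode both forms, count as cytosolic in the sum.

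Levels between genes were compared per kilobase of annotated exon. In siControl AARS1 stood at 29.5 ± 0.767 CPM per kb (SD, n = 3), VARS1 at 26.1 ± 0.385, FARSA at 17.5 ± 0.531 and QARS1 at 15.3 ± 0.810, the highest cytosolic levels. IARS2 at 8.79 ± 0.312 and AARS2 at 6.26 ± 0.229 were the highest mitochondrial ones, and WARS2 was lowest of all at 0.557 ± 0.128. The median level was 8.14 CPM per kb over cytosolic and 3.15 over mitochondrial members in siControl, and 7.20 and 2.63 in siNPM1c. FARSA and FARSB encode the subunits of 1 enzyme, yet FARSB was at 1.02 ± 0.157 CPM per kb, far below FARSA. The transcripts of FARSB hold 41.6% GC and those of FARSA 61.8%, and the part of GC content in this gap was not tested.

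**Figure D4:**
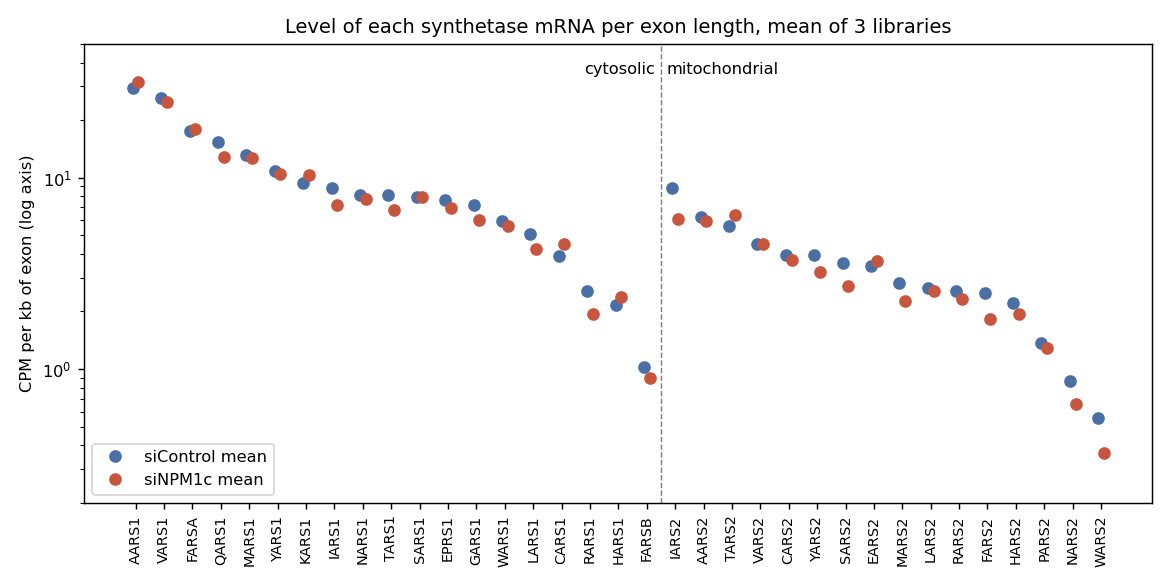
Mean level of each synthetase mRNA in CPM per kb of exon (log axis) in siControl (blue) and siNPM1c (red), ordered within each compartment by the siControl level. AARS1 and VARS1 lead the cytosolic enzymes (29.5 and 26.1 CPM per kb in siControl), IARS2 leads the mitochondrial ones in siControl (8.79), and the order between genes is far wider than the change between groups.

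GC content of the transcripts moved with the fold change. Across the 35 members Spearman's rho of log2 fold change with GC content was 0.49, across the 19 cytosolic members 0.65 and across the 16 mitochondrial members 0.50, beside 0.29 across the 12557 tested genes with a GC value. All points share the same 6 libraries, and genes are not independent replicates. Of the 11 members that fell, IARS1, LARS1, GARS1, TARS1, RARS1, IARS2 and WARS2 lie between 40.6% and 45.9% GC, where all genes had medians of -0.22 (GC content up to 42.9%) and -0.09 (43% to 48.1%). MARS2 lies at 48.4%, while SARS2 (61.9%), QARS1 (55.6%) and FARS2 (52.4%) lie above the median GC content. With each library corrected for its GC trend, 5 cytosolic members were lower and 1 higher (KARS1, 0.17, not called without the correction), and 6 mitochondrial members were lower and 0 higher. The median log2 fold change was then -0.07 over cytosolic and -0.23 over mitochondrial members, beside -0.03 over all genes. IARS1 (-0.19), TARS1 (-0.18), QARS1 (-0.32), IARS2 (-0.36), SARS2 (-0.51), FARS2 (-0.54) and MARS2 remained called lower, and VARS1, MARS1, AARS2 and YARS2 joined them.

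**Figure D5:**
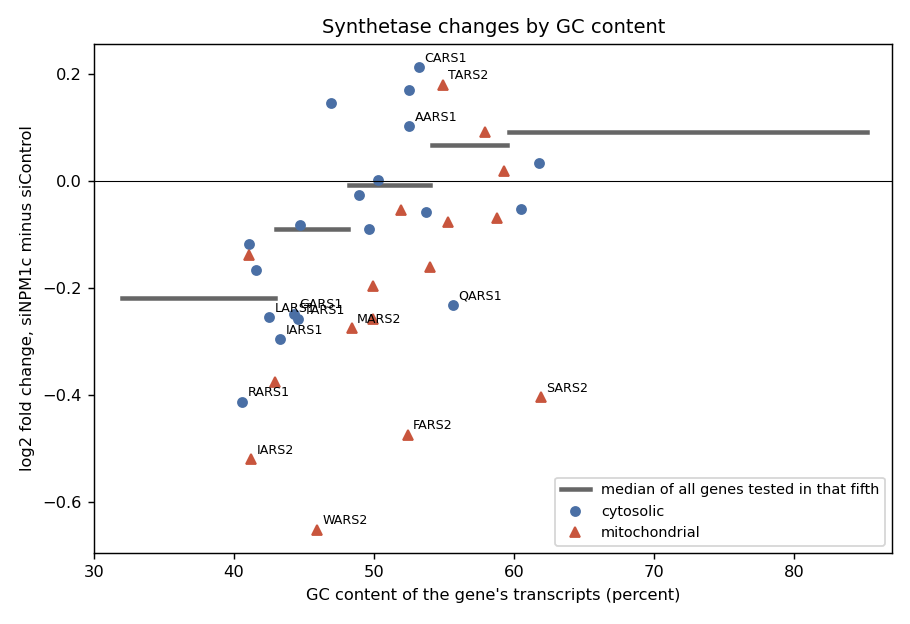
Log2 fold change (siNPM1c minus siControl, TMM scaling) of each synthetase against the GC content of its transcripts in percent, cytosolic as blue circles and mitochondrial as red triangles, called members named; grey bars are the medians of all tested genes in 5 GC bins of about the same number of genes, from -0.22 to 0.09. Synthetases of low GC content lie lower, as all genes do, while SARS2 and QARS1 lie low at high GC content, and CARS1, AARS1 and TARS2, above 0 here, fall below it under library sizes alone.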

How the data were processed

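RNA sequencing of total RNA gave 6 libraries. The authors deposited raw read counts, 1 unnormalized whole number per Entrez gene and library. Tools named in the submitters' processing notes are STAR 2.7.5a, cutadapt 2.6, CASAVA 1.8 and DESeq2 1.34.0, with builds hg38 and mm10. What each was used for, how genes were counted, the annotation, the strand setting and the treatment of multi-mapping reads are not given in the sources used here. RefSeq (GRCh38.p14) gave symbols for 28261 of 28307 genes. Pseudogenes are named there after 11 members, whose reads may be shared.

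Counts were analysed with edgeR 4.0.16 in R 4.3.3: filterByExpr (minimum count 10, total 15), TMM, glmQLFit (robust) and glmQLFTest, two-sided. SE is the absolute log2 fold change over the square root of F, and intervals are 95%. Chi-square per degree of freedom between replicates was 1.46 to 2.36, above the sampling noise in each pair. GC content and exon length came from GENCODE 29. The fit was tested on simulated data.

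Members, lists and alternatives were chosen with earlier results of these data known. All members were described. Values in every library were set by rule for calls of at least 0.5 log2, the 2 members with most counts per compartment, and the Trp and Ala enzymes. Those of other members were added after values were seen. From the other lists ATF4, ASNS, TRIB3, DDIT3 and up to 4 called members with the smallest p were named by rule, and the others named were added likewise.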

Additional observations from a re-analysis of the deposited data

How the results depend on the processing

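Of the 11 members called lower, 5 (IARS1, QARS1, TARS1, IARS2 and SARS2) were called lower in all 18 alternatives. The other 6, and all 3 called higher, lost the call in at least 1, as given above. With library sizes alone, 507 genes were higher and 9253 lower, the median of all genes was -0.48, cytosolic members were 0 higher and 19 lower with a median of -0.55, and mitochondrial members were 0 higher and 16 lower with a median of -0.65. The sign then turned for KARS1 (-0.32), AARS1 (-0.37), CARS1 (-0.26), FARSA (-0.43), HARS1 (-0.30), SARS1 (-0.47), EARS2 (-0.38), TARS2 (-0.29) and VARS2 (-0.45). DESeq2 1.42.0 called 1754 genes lower, 1 cytosolic member higher, and 2 mitochondrial members lower and 0 higher. limma-voom called 3 mitochondrial members lower and 0 higher. Without a filter both compartments had 0 higher, and the mitochondrial count was also 0 with upper-quartile factors and with a filter of 5 CPM in 3 libraries. With the GC correction 1 cytosolic and 0 mitochondrial members were higher, and the same numbers came with the replicate block added.

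Uncalled members close to 0 also changed sign. SARS1 had -0.013 with upper-quartile factors, -0.0207 without a filter, -0.0081 with the 5 CPM filter, -0.0317 with the GC correction and -0.0332 with GC correction and block. VARS2 had -0.0034 without a filter, -0.0799 with the GC correction and -0.0766 with the block added. The GC correction, without and with the block, gave 0.0449 and 0.045 for EPRS1, -0.0699 and -0.071 for FARSA, -0.0053 and -0.0047 for EARS2, and 0.0244 and 0.0231 for RARS2. Leaving out 1 library gave SARS1 -0.0465 to 0.0376, YARS1 -0.1113 to 0.0279, LARS2 -0.1257 to 0.0156, PARS2 -0.286 to 0.0832 and VARS2 -0.0476 to 0.1072. Cytosolic members higher then numbered 0 to 4, mitochondrial members higher 0 to 1 and lower 3 to 5, and the log2 difference of the summed ratio was 0.0743 to 0.1041, the last without siControl replicate 3. That difference was 0.0127 without VARS1 and IARS2 and 0.23 with the median log2 CPM over members in place of sums. The cause of these changes was not tested. FARSB, NARS2, PARS2 and WARS2 had no value under the 5 CPM filter.

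The replicate numbers are shared only as numbers: correlations of same-numbered libraries' deviations from their group means were 0.019, -0.003 and -0.004. With the replicate number as a block 2793 genes were higher and 2793 lower, cytosolic members were 3 higher and 6 lower, mitochondrial members 1 higher and 6 lower, and KARS1 (0.15) and YARS2 (-0.26) passed the threshold. Depth limits WARS2, NARS2, PARS2 and FARSB most, at 15 to 112 counts per library. For partner and amino acid response genes, library sizes alone and leaving out 1 library were added after seeing the data: library sizes alone gave 0 higher and 23 lower partner genes, and 1 higher and 12 lower amino acid response genes.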

Other observations

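WARS2-AS1, the antisense partner of WARS2, had 83, 121 and 99 counts in siControl and 52, 66 and 49 in siNPM1c, more than WARS2 in each library. It fell from 4.78 ± 0.494 to 3.46 ± 0.397 CPM (SD, n = 3; log2 fold change -0.47 ± 0.16, SE; edgeR adjusted p = 0.00872). In RefSeq WARS2-AS1 starts at position 119140396 and WARS2 ends at 119140672, so the 2 spans overlap. Reads there may be shared, since the strand setting is not known. Among the 3 siNPM1c libraries, replicate 2 held the highest CPM for 11 of 19 cytosolic and 8 of 16 mitochondrial synthetases. In siControl replicate 2 held it for 6 and 7. The same share over all genes was not computed, so these counts stand without a background.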
